A study of Drosophila melanogaster with 72 samples.

Results

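The genes described here belong to the Cpr family, which encodes structural proteins of the insect cuticle that bind chitin through a Rebers-Riddiford domain. They are the features of the count table whose FlyBase symbol begins with Cpr followed by a digit and that had at least 10 counts in 12 or more of the 72 libraries. Of 70 such symbols 25 passed, out of 17324 features in the table, and 12470 features were tested. The gene named Cpr without a digit, which encodes a reductase of cytochrome P450 enzymes, is not part of the family. Cuticle is secreted by epidermal cells as layers of chitin fibres and protein, and different Cpr proteins are laid down at different stages and in different body parts. Much of the adult cuticle is made before and shortly after the fly ecloses. Some family members belong to special cuticles, such as Cpr72Ec and Cpr66D of the corneal lens, the clear cuticle over each facet of the compound eye.

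Each library was made from 10 pooled whole Drosophila melanogaster males aged 3 to 5 days, which carried 1 of 6 mitochondrial haplogroups and 1 of 6 Y haplotypes. Mitochondria were B38 and B39 (Beijing), I02 (Ithaca) and N01, N02 and N23 (Netherlands), and Y chromosomes were B04 and B11 (Beijing), N03 and N07 (Netherlands) and ZH23 and ZW139 (Zimbabwe), all from inbred Global Diversity Lines and each haplotype from 1 line. Females of mitochondrial replacement lines were crossed with males of Y replacement lines, and both kinds of line carry the 4361 nuclear background. Each of the 36 combinations had 2 libraries from separate crosses, which gave 12 libraries per haplotype. All groups are replacement genotypes, and none is an untreated or wild-type control. A son takes his X chromosome from the same mother as his mitochondria, so that any remaining difference on the X and the haplogroup cannot be told apart.

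Values are QuantSeq 3′ counts, which are not scaled by gene length, given as CPM: the counts divided by the library size that TMM (trimmed mean of M values) adjusted. Libraries held 2454024 to 7671784 counts in genes, and the 2 libraries of every combination differed by more than sampling noise. Per the labels, batch 2 holds 18 libraries, the replicate 2 of each N01, N02 and N23 combination, and batch 1 the other 54. In 6 libraries over 20% of the reads aligned to several places: replicate 1 of B38 mitochondria with Y B04, B11, N03 and N07, replicate 1 of mtI02_YN03 and replicate 1 of mtN23_YB04. In mtN23_YN03 replicate 2 the noncoding asRNA:CR44894 stood at 29.4 CPM, against at most 1.73 CPM in the other 11 N23 libraries. The haplogroup label of this library was therefore doubted. From this transcript alone a wrong label, a mixed sample and another difference of the library cannot be told apart. Without that library the family had 4 genes called between Y haplotypes, 2 between haplogroups, 0 for the interaction and 5 between batches, as with it.

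The 25 genes together took 600 to 1113 CPM per library, with a median of 842 CPM, and they held 98.9% of all counts of the family. A few genes carried most of this. Cpr65Au averaged 259 CPM over the 72 libraries (lowest 91.7, median 261, highest 430), Cpr49Ae 163 CPM and Cpr49Ab 124 CPM, and these 3 held 64.2% of the summed CPM. Cpr67B averaged 79.8 CPM, Cpr72Ec 50.1, Cpr67Fb 34.0, Cpr60D 20.03, Cpr47Ef 16.8, Cpr47Ee 16.3 and Cpr62Bb 14.2 CPM. The other 15 lay between 1.09 and 13.5 CPM on average. Because reads come from transcript 3′ ends, these are read shares and not compared per length.

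**Figure D1:**
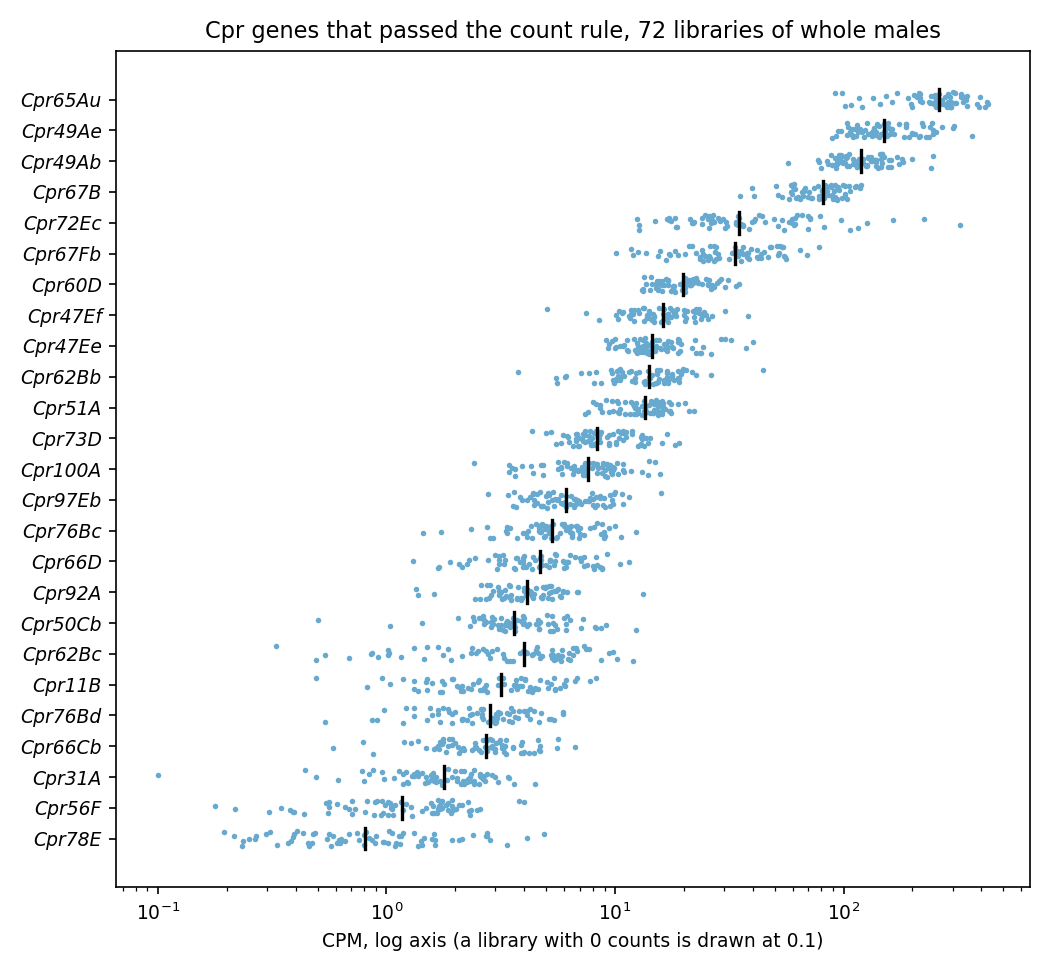
Levels of the 25 Cpr genes in CPM on a log axis, genes ordered by their mean from the top down; each point is 1 of 72 libraries and the black bar is the median. Cpr65Au ranges from 91.7 to 430 CPM, while Cpr78E at the bottom has a mean of 1.09 CPM, and Cpr72Ec spreads from 12.5 to 323 CPM.

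The count rule cut through genes at the edge of detection. Just inside it were Cpr31A with 27 libraries of at least 10 counts, Cpr56F with 16 and Cpr78E with 12, all 12 of which were in batch 1. Just outside were Cpr92F with 10 libraries, Cpr65Ec with 9 and Cpr62Ba with 6. Of the 25 genes 12 lie on chromosome arm 3L, 8 on 2R, 3 on 3R, 1 on 2L and 1 on the X. By gene identifier in assembly BDGP6.54 (Ensembl), Cpr65Au (3L, 6131242 to 6132109) overlaps the antisense asRNA:CR46005 over 833 of its 868 bases, and Cpr67Fb lies within asRNA:CR45171 over all of its 521 bases. Cpr11B lies over all of its 1112 bases within hwt, a coding gene on the opposite strand. Other members overlap coding genes of the opposite strand in part: Cpr73D overlaps Obp73a (10582 of 18590 bases) and Ogdh (2868), Cpr51A overlaps CG30197 (963 of 2653) and Cpr56F overlaps CkIIbeta2 (1006 of 3575). The strand setting of the counting is not given in the sources used here. Reads in these overlaps, those of Cpr65Au and Cpr67Fb among them, cannot be told apart from reads of the opposite-strand partners.

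Between Y haplotypes, 4 genes of the family differed: Cpr62Bc, Cpr72Ec, Cpr100A and Cpr76Bd. Their F tests in edgeR's quasi-likelihood model, with Benjamini-Hochberg adjustment over all 12470 genes, gave adjusted p = 0.000543, 0.00122, 0.0103 and 0.0122. Across all genes tested 4.15% were called in that test. The other 21 genes had adjusted p-values between 0.134 and 0.851, of which Cpr67B at 0.134 was the smallest. The 4 genes were called in all 10 alternatives and in all 72 fits that left out 1 library. Those 72 fits kept the trend of count dispersion estimated from all libraries, and were in that not full refits.

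Of these 4, Cpr72Ec (3L, 16365894 to 16367340) is the corneal lens gene. In Y B11 males it ranged from 25.7 to 165 CPM with a median of 59.6, and in Y B04 males from 24.7 to 323 CPM with a median of 35.7. In Y ZH23 males the median was 39.7 CPM and in Y ZW139 males 39.6, against 26.7 CPM in Y N03 and 18.0 CPM in Y N07 males. The groups overlapped, but N03 had no library above 45.3 CPM, and the highest value of all, 323 CPM, came from mtN23_YB04 replicate 1, whose partner library had 35.1 CPM and which is one of the 6 libraries over the 20% limit. In the 24 libraries with a Beijing Y the mean was 73.9 CPM ± 70.5, against 30.05 ± 23.1 in the 24 with a Netherlands Y (SD). The log2 fold change of Beijing over Netherlands Y was 1.23 ± 0.19 (SE, adjusted p = 0.000266; 3.16% of all genes were called in this contrast). It was positive in 6 of 6 haplogroups, and 22 of 24 Beijing Y libraries lay above the Netherlands median. In batch 1 alone it was 1.29 and without the 6 libraries 1.06, with adjusted p of 0.00804 and 0.00936.

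**Figure D2:**
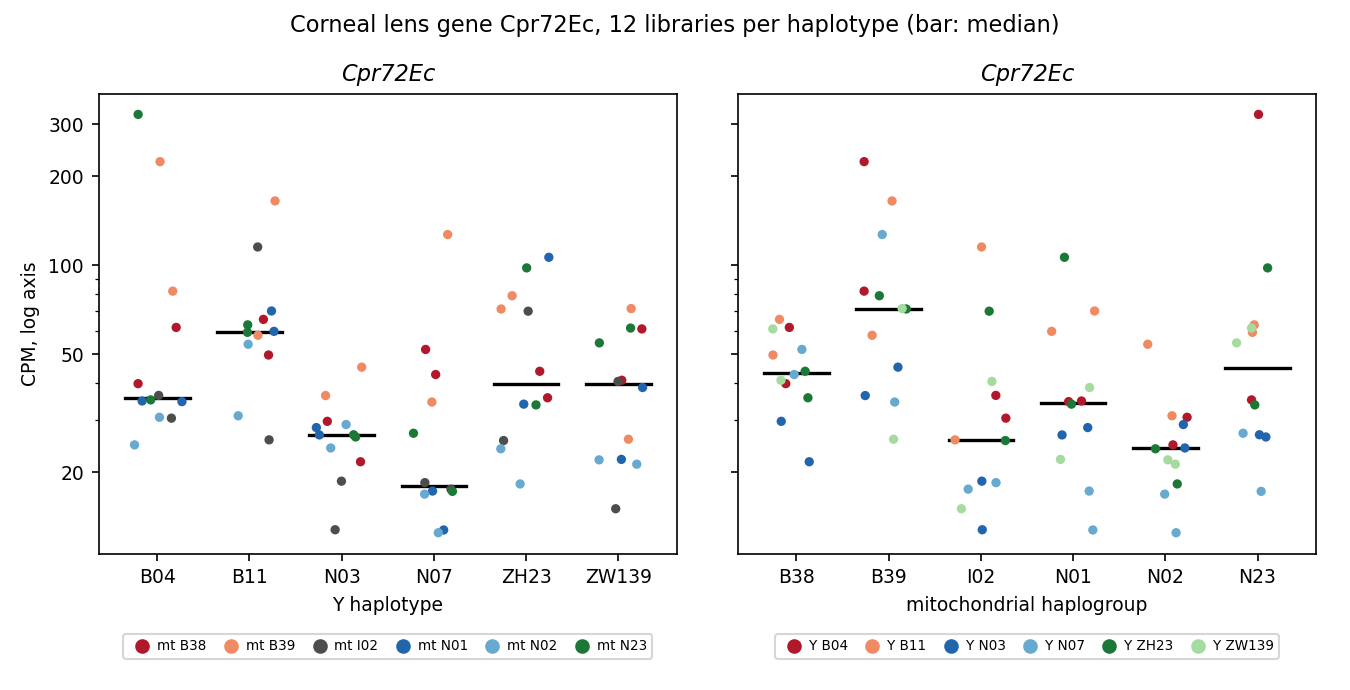
Cpr72Ec in CPM on a log axis, by Y haplotype on the left with points coloured by mitochondrial haplogroup, and by haplogroup on the right with points coloured by Y haplotype; each point is a library and the bar is the median. Medians are 35.7 and 59.6 CPM with the Beijing Y chromosomes B04 and B11, and 26.7 and 18.0 CPM with the Netherlands Y chromosomes N03 and N07; B39 has the highest haplogroup median, 71.3 CPM.

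Cpr72Ec was higher in B11 than in the other 5 Y haplotypes, with a log2 fold change of 0.79 ± 0.20 (SE, adjusted p = 0.0156; 2.46% of all genes called in B11), with 10 of 12 B11 libraries above the median of the others. In batch 1 alone the estimate was 0.79 with adjusted p = 0.221, so that the call did not stand there.

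Eye genes moved with Cpr72Ec in part. Of 15 photoreceptor genes tested, such as ninaE and Arr2, 13 were called between Y haplotypes, and 13 were higher in B11. Summed over the 15 genes, B11 males had 1624 to 5954 CPM (median 3919), against 1707 to 2206 CPM in N03 and 1546 to 5063 CPM in N07 males. In ZH23 the median of the sum was 3365 CPM, in ZW139 2096 and in B04 2070. Cpr72Ec did not follow the sum there, with medians of 39.7 CPM in ZH23 and 39.6 in ZW139. It was not called in ZH23 (0.28 ± 0.20, SE, adjusted p = 0.708). None of the 15 photoreceptor genes except chp was at 0 counts in any library. Of 2 further genes of the corneal lens, retinin (adjusted p = 0.00553 between Y haplotypes) was higher in B11 by 0.76 ± 0.17, and Crys was not called (0.166), nor was the lens gene Cpr66D (0.212). Retinin and Crys were chosen after values had been seen. The part of the eye genes in the Cpr72Ec difference was not tested. In whole-fly libraries fewer cells of a type and less RNA per cell cannot be told apart. Across the 36 combination means the genes most like Cpr72Ec included Cpn (Pearson r = 0.77, Spearman rho = 0.78) and Arr2 (0.76 and 0.74), and retinin had r = 0.72 and rho = 0.75 with it. The likeness measure for single genes was also chosen after values had been seen, and the means of all genes rest on the same libraries and their depth.

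The other 3 genes called between Y haplotypes were lower in B11 and ZH23 by their group means. Cpr62Bc (3L, 1840281 to 1842084) had a median of 1.48 CPM in B11 and 1.50 CPM in ZH23 males. The other Y haplotypes had medians of 5.50 CPM (N03), 5.35 (B04), 4.68 (ZW139) and 4.31 (N07). Single libraries ranged from 0.329 to 6.56 CPM in B11 and from 0.490 to 6.24 CPM in ZH23, against 1.03 to 12.0 CPM in the other Y haplotypes. These are low counts: the lowest B11 library held 2 counts of Cpr62Bc and the lowest ZH23 library 3. At least 10 counts were reached in 54 of the 72 libraries. The groups overlapped at their ends, but 10 of 12 B11 and 11 of 12 ZH23 libraries were below the median of their 60 counterparts. In B11 the log2 fold change was -1.17 ± 0.28 (SE, adjusted p = 0.0116) and in ZH23 -1.12 ± 0.28 (0.0254; 1.36% of all genes were called in ZH23), lower in 6 of 6 haplogroups each. In ZH23 both family genes called were lower (0.192% of all genes). Each contrast contains the other group among its 60 counterparts, so that they are not independent. In batch 1 alone the ZH23 estimate was -1.44 and still called (0.0167), while the B11 estimate was -0.80 and was not (0.502).

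Cpr76Bd (3L, 19532743 to 19538289) had its lowest medians in ZH23 at 1.74 CPM and in B11 at 2.32 CPM, against 3.54 in N03, 3.21 in ZW139, 2.88 in B04 and 2.50 in N07. Levels ran from 0.912 to 3.23 CPM in ZH23 libraries, and 11 of 12 were below the median of the others, 3.00 CPM. Counts of Cpr76Bd were low too, with at least 10 in 49 of the 72 libraries. The ZH23 log2 fold change was -0.75 ± 0.19 (SE, adjusted p = 0.0294) and was not called without the 6 libraries (0.0587). Cpr100A (3R, 30867521 to 30869184) had medians of 6.18 CPM in B11 and 5.75 CPM in ZH23, against 8.04 in B04, 8.79 in N03, 8.97 in N07 and 9.46 in ZW139. Its B11 log2 fold change was -0.54 ± 0.14 (SE, adjusted p = 0.0264), below the median of the others in 11 of 12 B11 libraries. In ZH23, 11 of 12 libraries were also below, with 1 exception at 15.7 CPM, the highest of all libraries. The remaining single contrasts, Cpr76Bd in B11 at -0.38 ± 0.18 (SE, adjusted p = 0.375) and Cpr100A in ZH23 at -0.42 ± 0.14 (0.171), were not called. In batch 1 alone the B11 estimate of Cpr100A was -0.35 and not called (0.485).

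Markers of other tissues were examined in the same contrasts. Of 7 flight muscle genes, 0 were positive in B11 and 0 in ZH23, with median log2 fold changes of -0.32 and -0.13 and 0 called. Of 4 fat body genes, 4 were positive in each, with medians of 0.57 in B11 and 0.59 in ZH23 and 1 called in each. The 15 photoreceptor genes were positive in both, with a median of 0.70 and 13 called in B11, and 0.44 and 2 called in ZH23. Among 10 midgut genes, Jon99Ciii was called higher in B11 (1.64 ± 0.23, SE, adjusted p = 5.7e-06) and in ZH23 (1.09 ± 0.24, 0.00673). Amy-p was called higher in B11 (0.67 ± 0.15, 0.0076). No other midgut gene was called in B11 or ZH23, although Jon66Ci (0.00363) and LysX (0.0208) were called in the Y F test. Summed over the 10 midgut genes, medians were 16333.5 CPM in B11 and 16769.5 in ZH23, within the 14997 (N07) to 18893 CPM (B04) of the other Y haplotypes. No accessory gland, testis or antenna gene was called in B11 or ZH23. The part of these tissues in the levels of Cpr62Bc, Cpr76Bd and Cpr100A was not tested.

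**Figure D3:**
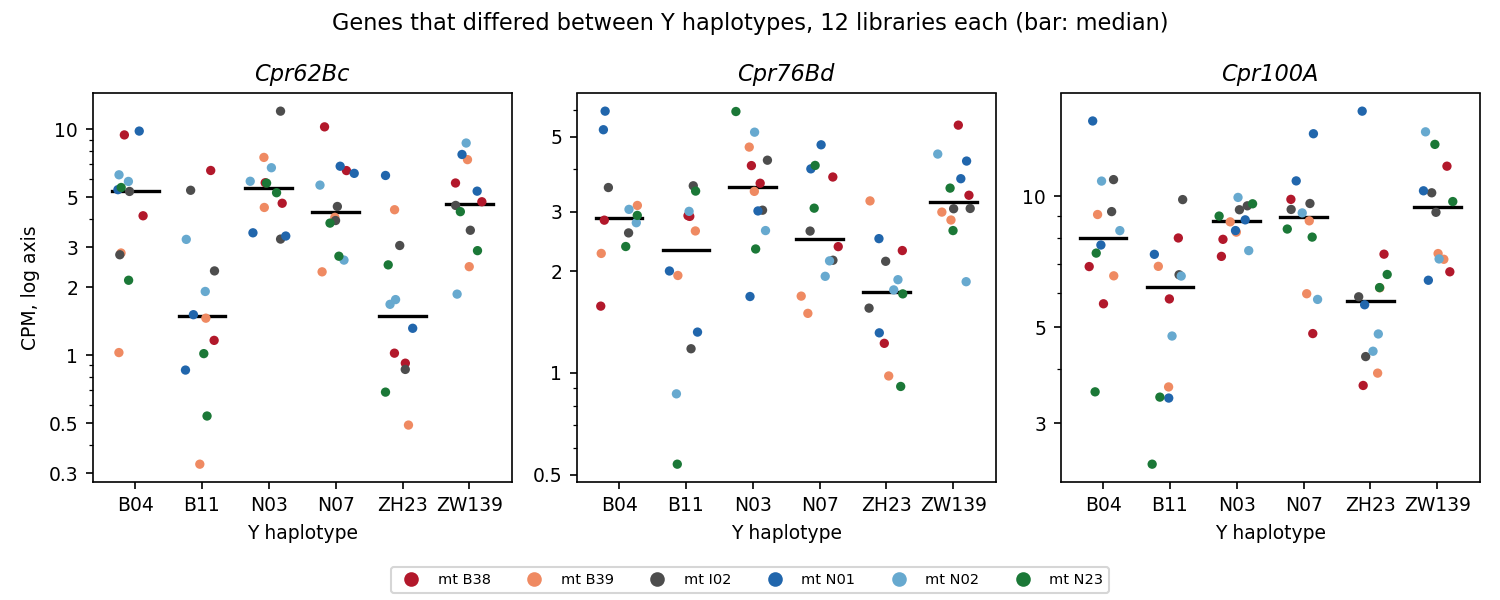
Cpr62Bc, Cpr76Bd and Cpr100A in CPM on log axes by Y haplotype, each point 1 library coloured by mitochondrial haplogroup and the bar a median. In Cpr62Bc the medians of B11 and ZH23 are 1.48 and 1.50 CPM, below the 4.31 to 5.50 CPM of the other Y haplotypes, and some libraries of B11 and ZH23 lie within the range of the others.

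Correlations among these 3 genes partly restate their lower levels in B11 and ZH23, which the means contain and for which they are described together. Across the 36 combination means of log2 CPM the correlation of Cpr62Bc and Cpr76Bd was r = 0.76 (rho = 0.79), that of Cpr62Bc and Cpr100A 0.74 (0.64), and that of Cpr76Bd and Cpr100A 0.68 (0.68). Over all 300 pairs of the 25 genes r had a median of 0.03 and ran from -0.70, for Cpr47Ee and Cpr65Au, to 0.76, with 166 of the 300 above 0. Combinations share depth and the single libraries behind each mean, so these r are descriptions. The pair with the lowest r went opposite ways in the 4 B38 libraries over the 20% limit. There Cpr47Ee had a median of 30.6 CPM, against 14.7 CPM in the other 8 of B38, and Cpr65Au had 111 against 236 CPM. The 3 pairs of members that lie within 20 kb of each other had r of -0.26 to 0.22. Among genes outside the Cpr symbols, Cpr62Bc was most like lncRNA:CR45809 (r = 0.81), CG14963 (0.81) and Ccp84Ab (0.80), the last a cuticle protein with the same kind of domain.

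Cpr76Bc (3L, 19520945 to 19527272), a neighbour of Cpr76Bd, went the other way in B11. It had a median of 7.12 CPM (lowest 2.92, highest 12.4) in B11, against 5.12 CPM in the other Y haplotypes, which reached from 1.45 to 9.99 CPM. The ranges overlapped, with 10 of 12 B11 libraries above the median of the others. The log2 fold change was 0.48 ± 0.13 (SE, adjusted p = 0.043), and in batch 1 alone 0.39 with adjusted p = 0.596. It was not called between all Y haplotypes in the F test (0.166).

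The populations of origin gave 3 calls in all, those of Cpr72Ec, Cpr62Bc and Cpr62Bb between Beijing and Netherlands Y chromosomes. Beijing against Netherlands mitochondria (0.305% of all genes called) and Zimbabwe against the other Y chromosomes (0.0321%) had 0. Cpr62Bb (3L, 1832636 to 1835164) was lower with Beijing than with Netherlands Y chromosomes, at a log2 fold change of -0.49 ± 0.14 (SE, adjusted p = 0.0407), with means of 11.8 CPM ± 4.19 and 16.5 ± 7.19 (SD, n = 24 each) and 18 of 24 Beijing libraries below the Netherlands median. The contrast was not called in batch 1 alone (0.108) or without the 6 libraries (0.156). Cpr62Bc in the same contrast was at -0.83 ± 0.22 (0.0318), and was not called in batch 1 alone (0.122) or without the 6 (0.0522). Cpr67B, with medians of 64.1 CPM in B11, 67.1 in ZH23 and 82.0 to 89.5 in the other Y haplotypes, was not called in the F test (0.134) but was without the 6 libraries (0.00634). Cpr62Ba, which is just outside the rule, averaged 1.47 CPM ± 0.853 in B11 and 1.43 ± 1.31 in ZH23 (SD, n = 12 each), against means from 0.412 CPM in N03 to 0.878 CPM in ZW139 among the other 4 Y haplotypes.

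**Figure D4:**
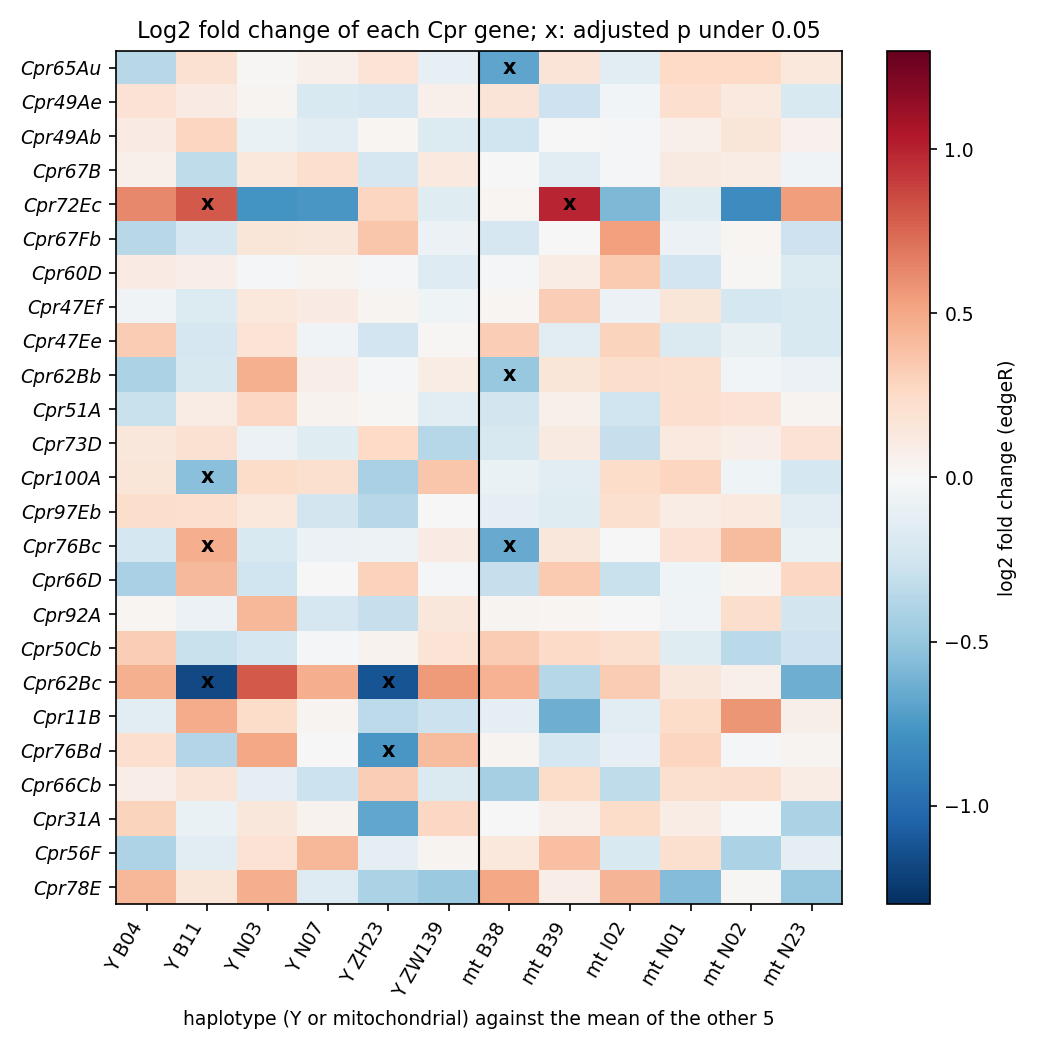
Log2 fold change of each Cpr gene (rows, by mean CPM) in 12 contrasts of 1 haplotype against the mean of the other 5, Y haplotypes left and mitochondrial haplogroups right of the line; x marks an adjusted p under 0.05 in edgeR. Of the 10 marks, 4 stand in Y B11, 2 in Y ZH23, 3 in B38 and 1 in B39.

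The other 4 Y contrasts had 0 members called, with 0.0561% of all genes in B04, 0.152% in N03, 0.016% in N07 and 0.168% in ZW139, as had the haplogroup contrasts of I02 (0.401%), N01 (0.0401%), N02 (0.0241%) and N23 (0.144%).

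Between mitochondrial haplogroups, Cpr72Ec and Cpr65Au differed. Their F tests gave adjusted p = 0.0033 and 0.0347, and 2.04% of all genes were called; the other 23 genes had adjusted p-values from 0.0581 (Cpr76Bc) to 0.913, Cpr60D being at 0.244 and Cpr62Bb at 0.277. Cpr76Bc was called by DESeq2 (0.0172), with no batch term, in the model without interaction and in 12 of 72 fits with 1 library left out (lowest 0.0196, without mtB38_YB11 replicate 2), but stood at 0.501 without the 6 libraries. Cpr60D was called with no batch term (0.0363). Cpr72Ec was highest with B39, at a median of 71.3 CPM (lowest 25.8, highest 224), against 32.4 CPM in the other haplogroups (12.5 to 323). N23 followed at 44.9 CPM, then B38 at 43.3, N01 at 34.3, I02 at 25.6 and N02 at 24.1. In B39, 11 of 12 libraries lay above the median of the others. The log2 fold change was 0.99 ± 0.21 (SE, adjusted p = 0.035; 0.0642% of all genes called in B39), higher in 6 of 6 Y haplotypes, and 1.11 without the 6 libraries (0.00967). In batch 1 alone it was 0.91 with adjusted p = 0.0914, and by limma-voom it was not called either. Of the photoreceptor genes 0 of 15 were called in B39, where their sum had a median of 3482 CPM (1752 to 5908), the highest median of the 6 haplogroups. In the haplogroup F test, however, ninaA (adjusted p = 0.0222), ninaC (0.0445), ninaE (0.0326) and Rh3 (0.00999) of these 15 were called, beside 2.04% of all genes.

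Cpr65Au, the gene with the most reads, was lowest with B38. Its median was 153 CPM in B38 (lowest 91.7, highest 326), against 270 CPM in the other haplogroups (108 to 430), and the groups overlapped. The medians of the 5 others lay between 247 CPM (I02) and 286 CPM (B39). The log2 fold change was -0.68 ± 0.14 (SE, adjusted p = 0.0026; 9.73% of all genes were called in B38 and 2.88% were called lower), with 10 of 12 B38 libraries below the median of the others. Cpr76Bc, at -0.66 ± 0.15 (0.00642), and Cpr62Bb, at -0.49 ± 0.16 (0.0455), were lower in B38 too, and these 2 genes each in 6 of 6 Y haplotypes. Cpr65Au was not: with Y ZH23 it averaged 291 CPM in B38, within the 195 (I02) to 360 CPM (B39) of the other haplogroups. The calls in B38 ended without the 6 libraries named above. The 4 of them with B38 mitochondria had 91.7 to 134 CPM of Cpr65Au (median 111), against 98.2 to 326 CPM in the other 8 (median 236) and a median of 275 CPM in the 58 libraries of other haplogroups under the limit. Without the 6 libraries the estimates were -0.51, -0.45 and -0.22, with adjusted p of 0.143, 0.28 and 0.644, and the haplogroup F test of Cpr65Au gave 0.4. Leaving out 1 library ended that F test call in 23 of 72 fits, with a highest adjusted p of 0.142 when mtB38_YN07 replicate 1 was left out, and so did batch 1 alone (0.0862).

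**Figure D5:**
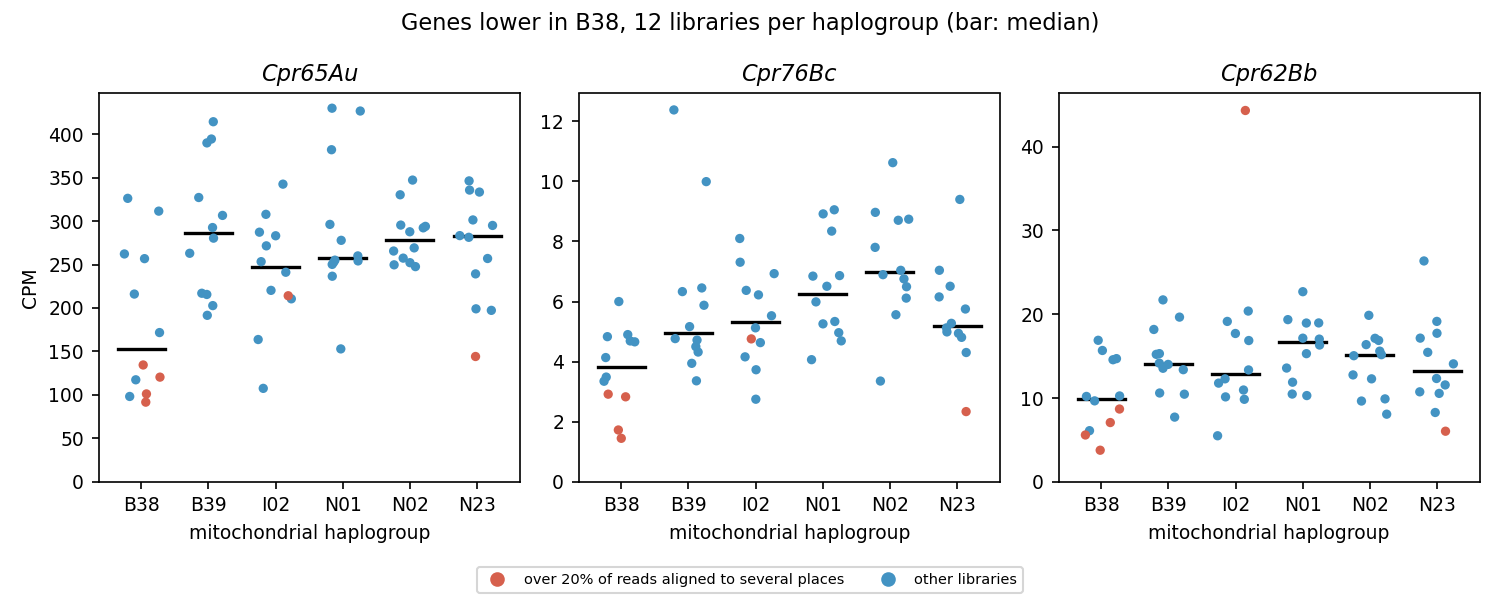
Cpr65Au, Cpr76Bc and Cpr62Bb in CPM by mitochondrial haplogroup, with libraries that had over 20% of reads aligned to several places in red and the bar a median over 12 libraries. The 4 red libraries of B38 lie at 91.7 to 134 CPM in Cpr65Au, and the 8 blue ones reach up to 326 CPM.

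Of 8 accessory gland genes tested, such as SP and Acp95EF, 0 were called in the haplogroup F test, while 6 were lower in the contrast of B38, and their sum there was 3932 to 7554 CPM (median 5848), against 5343 to 9811 CPM in the libraries of the other haplogroups. None was at 0 counts in any library. Whether the 6 calls in B38 held without the libraries over the limit for reads aligned to several places is not given here. The genes most like Cpr65Au across the 36 combination means were antr (r = 0.92, rho = 0.89) and Sfp96F (0.92 and 0.82). The likeness was chosen after values had been seen, and the part of the accessory gland in the difference was not tested.

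No gene of the family was called for the interaction of haplogroup and Y by edgeR (0 of 25, all adjusted p = 1; 1 at an unadjusted p under 0.05, and 0 by limma-voom and by DESeq2). Over all genes 0 were called by edgeR, with 239 at an unadjusted p under 0.05.

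Between batches 5 of the 25 genes were lower in batch 2 (29.3% of all genes were called, 14.6% lower). Within N01, N02 and N23, Cpr49Ab had 57.4 to 121 CPM in batch 2 (median 97.5), against 93.3 to 245 CPM in batch 1 (median 140), and batch 2 was lower in 17 of 18 combinations. Its log2 fold change was -0.58 ± 0.10 (SE, adjusted p = 2.16e-05), followed by Cpr11B at -0.995 ± 0.25 (0.0031), Cpr73D at -0.52 ± 0.13 (0.00334), Cpr66Cb at -0.53 ± 0.19 (0.0308) and Cpr47Ee at -0.38 ± 0.14 (0.0354). Cpr66Cb lost the call without the 6 libraries (0.0572). Cpr47Ee lost it with no filter on low counts. Within these haplogroups batch and replicate number cannot be told apart. The calls of Cpr11B, Cpr47Ee and Cpr66Cb depended on the replicate number not being a term of the model.

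For the median of the 25 genes, the largest shares of the variance lay between the 2 libraries of a combination and in the interaction. These shares were not scaled by degrees of freedom. Those 2 parts hold the most of them, so that noise alone gives both a large share. No gene of the family was called for the interaction. For the median member, the haplogroup took 9.89% and the Y haplotype 12.3% of the variance of log2 CPM, against 7.38% and 8.99% for the median of all tested genes. Their interaction took 25.5% against 25.2%, batch 2.92% against 6.13%, and the spread between the 2 libraries of a combination 40.3% against 45.0%. The shares were taken in sequence, with batch first, then haplogroup, Y and interaction. Batch 2 holds only N01, N02 and N23 libraries, so that the batch share can contain part of the haplogroup differences. Of single members, Cpr62Bc had the largest Y share among the 25, 42.3%, and Cpr65Au the largest haplogroup share, 31.1%.

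The other genes of the cuticle were listed with earlier results of these data known. Of 23 structural cuticle proteins under other names, 4 (17.4% of the list, against 4.15% of all genes) differed between Y haplotypes: Ccp84Ab, Acp65Aa, TwdlT and TwdlP (adjusted p = 0.00109, 0.0071, 0.0205 and 0.00419). In B11, Ccp84Ab fell by 1.35 ± 0.33 (0.0141), Acp65Aa by 1.28 ± 0.29 (0.00632) and TwdlT, a Tweedle cuticle protein, by 0.70 ± 0.19 (0.0335) on the log2 scale, and in ZH23 Ccp84Ab fell by 1.20 ± 0.32 (0.0441). Between haplogroups 1 of the 23 (4.35%) differed, against 2.04% of all genes. The median log2 fold change over the list was -0.16 in B11, against 0.08 over the 25 Cpr genes and -0.01 over all genes. Of 19 genes of chitin synthesis and assembly, 0 differed between Y haplotypes and 2 (10.5%) between haplogroups, kkv (4.12e-05), the chitin synthase of the epidermis, which was higher in I02 by 1.34 ± 0.17, and Idgf3 (0.0427). Of 8 chitinases 1 (12.5%) differed between haplogroups (Cht4, 0.0133) and 0 between Y haplotypes. Of 16 tanning genes 2 (12.5%) differed between Y haplotypes, yellow-e2 (0.00107; higher in B11 by 2.98 ± 0.55) and yellow-g (0.0447), and 1 (6.25%) between haplogroups (yellow-e, 0.0258). Of 8 cuticular hydrocarbon genes and 14 hormone-response regulators 0 were called in either F test. In the single contrast of B38, 3 of the 14 regulators were called, all higher: the nuclear receptor Hr4 by 1.48 ± 0.31 (0.00299), grh, a transcription factor of the epidermis, by 0.58 ± 0.13 (0.00502) and the ecdysone-induced Eip74EF by 0.40 ± 0.11 (0.0204). The hydrocarbon enzyme Cyp4g1 was higher in B38 too, by 0.49 ± 0.14 (0.0241), as 1 of 8. In batch 2, 5 of the 14 regulators were called higher. These calls stand beside 9.73% of all genes called in B38 (6.85% higher) and 29.3% between batches (14.7% higher). Whether the batch calls held with the replicate number as a term of the model is not given here. Summed over the 14 regulators, B38 had a median of 260 CPM and a highest value of 514 CPM. Medians of the other haplogroups were 290 (N02), 286 (N23), 272 (N01), 235 (B39) and 231 CPM (I02). Summed over the 8 hydrocarbon genes, the B38 median was 10281 CPM (highest 29872.5), against 10420 in B39 and 8817 to 9737 CPM in the others. Whether these B38 calls held without the libraries over the limit for reads aligned to several places is not given here.

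The tested gene outside the family closest to the mean standardized profile of the 25 was CG10550 (r = 0.69, rho = 0.65; 0.68 without the 2 farthest combinations), followed by Obp56e (0.67), an odorant-binding protein gene, Idh3b (0.66) and Mst57Dc (0.66), over 36 combination means. The members themselves correlated with this profile by at most 0.55 (Cpr92A).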

How the data were processed

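RNA of 10 pooled whole males was sequenced per library with the Lexogen QuantSeq 3′ FWD kit. The tools STAR 2.6, HTSeq 0.11.0, Trimmomatic 0.36, FastQC 0.11.5 and DESeq2 are listed in the submitters' processing notes, with no role or order. Genome build, annotation and strand setting were not given in the sources used here. Raw counts per gene were deposited by the authors in 1 table and 1 file per library, which were identical for all 72 libraries; the normalized table was not used. Haplotype names follow the sample labels. Depth was 2454024 to 7671784 counts in genes per library (median 4792638), 12.3% of reads (median) aligned to several places and 3.12% to no gene.

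Counts of 12470 features kept by filterByExpr were scaled with TMM and fitted by edgeR 4.0.16 (R 4.3.3) with haplogroup, Y, their interaction and batch, leaving 35 residual degrees of freedom and a common biological coefficient of variation of 0.285. Genes with a Benjamini-Hochberg adjusted p under 0.05 over all features tested were called. Each contrast sets 1 haplotype against the unweighted average of 5 others. Errors of fold changes are implied by the F statistic. Alternatives were limma 3.58.1 (voom), DESeq2 1.42.0 and others given in the closing section. The fitting was tested on simulated data. Members, gene lists and named genes (called members, the 10 most abundant, the 5 smallest p per F test, the 3 nearest the rule on each side) were chosen with earlier results of these data known. Sequences of the genes are not shown here.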

Additional observations from a re-analysis of the deposited data

How the results depend on the processing

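The 4 genes called between Y haplotypes were called in each of 10 alternatives (another normalization, filter, model or tool, batch 1 alone, and without the 6 libraries where over 20% of reads had several places), with counts of 4 or 5, and 4 to 5 when 1 library was left out. The haplogroup count was 2, and was 5 without a batch term, 4 with a replicate block, 3 without interaction, 3 by DESeq2, 1 in batch 1 alone and 1 without the 6 libraries (1 to 3 with 1 library left out). The interaction count of the family stayed 0 in all fits run. The 6 Y contrasts gave 6 calls and 3 in batch 1 alone; the 6 haplogroup contrasts gave 4, 2 in batch 1 alone and 1 without the 6; the 3 population contrasts gave 3, 5 without a batch term, 9 with a replicate block, 1 in batch 1 alone and 1 without the 6. The batch count was 5, and 4 with no filter, 4 without the 6 and 3 to 5 with 1 library left out. Replicate numbers were not taken to pair the samples, since not every pair of combinations had r of deviations over 0.1 (314 of 630, median 0.0977, lowest -0.58). Among B38, B39 and I02 99 of 153 did (median 0.173), and among N01, N02 and N23 125 of 153 (0.229). With the block, the replicate term itself called 4904 genes (39.3%) and 6 members. The batch count was again 5, but 3 of these were lower, and Cpr11B (-0.59, adjusted p = 0.182), Cpr47Ee (-0.16, 0.542) and Cpr66Cb (-0.13, 0.725) were not among them. With the block Cpr72Ec was not called in B39 (0.0578), and Cpr76Bc was called between haplogroups (0.00278). Cpr76Bc in B11 was also lost by limma-voom and without a filter, Cpr62Bb in B38 without a filter or without the interaction, and Cpr62Bb between Beijing and Netherlands Y without a batch term. With the replicate block 929 genes of all were called between Y haplotypes and 1639 between haplogroups, against 517 and 254. Between Y haplotypes DESeq2 called 875 genes and batch 1 alone 338. Between haplogroups 601 were called without a batch term, 620 without interaction, 652 by DESeq2 and 110 without the 6 libraries. With 1 library left out that count was 108 to 764, and 12 libraries, 9 of them B38, moved it by over 1.5 times. DESeq2 called 10 genes for the interaction, and edgeR 0 to 34 with 1 library left out. Adjusted p-values of single contrasts were not run with 1 library left out. The causes of these changes were not tested.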
